A study of Delphinapterus leucas with 24 samples.

Results

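Blood RNA of beluga whales (Delphinapterus leucas) was examined for ZKSCAN1 and the numbered ZNF genes, a set of 55 zinc finger transcription factor genes given as Entrez Gene IDs. Of the 55 IDs, 35 were listed, out of 9855 Entrez Gene IDs in the whole table. They rested on 70 of its 45872 assembled features. The set was chosen by its leading gene: ZKSCAN1 was picked on its lower scaled TPM in 2014 than in 2012 in these same libraries, so that difference is described below and not tested. All 35 listed members had at least 1 TPM (transcript abundance corrected for length and scaled to a fixed total per library) in 8 or more libraries, which was the filter on low values. IDs 7556, 7561, 7568, 7581, 7594, 7637, 7639, 7644, 7678, 7691, 7695, 7700, 7705, 7711, 7753, 7756, 7766, 7767, 7768 and 7769 were absent from the table analysed here.

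C2H2 zinc finger proteins bind DNA through arrays of short zinc-holding repeats, and they form one of the largest families of transcription factors in mammals. Many also carry a KRAB domain, which recruits the corepressor KAP1 (TRIM28) and through it the machinery that compacts chromatin. ZKSCAN1 has a KRAB domain and, besides, a SCAN domain, through which such proteins pair with each other. The table does not pair IDs with gene symbols. ID 7586 is taken here as ZKSCAN1 because it stands first and out of numerical order in the list that defines the set. The other members are called by ID, with no gene name and no individual role. The transcripts were assembled from the beluga reads, and each ID is an annotation of an assembled feature.

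The whales lived wild in Bristol Bay, Alaska, and each library came from whole blood kept in PAXgene tubes, which fix RNA at collection. The labels name no treatment. Sampling fell on 1 to 12 September of 2012, on 23 to 30 August of 2013 and on 25 August to 3 September of 2014, so year and date in part go together. There were 8 libraries from each of the years 2012, 2013 and 2014, with 3 females and 5 males in 2012, 4 and 4 in 2013, and 2 and 6 in 2014. The sources used here give neither the ages of the whales nor whether a whale was sampled in more than 1 year, so p-values measure only the spread between these libraries.

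The libraries differed in how much of their TPM the 3 most abundant features took, and this touched every member. These features carry IDs 3043 and 3040 and are taken here as globin chains of red blood cells, since they are the most abundant in whole blood, although the files give no name for them. Their share, called the globin share, ran from 2.72% to 54.3% of the listed TPM, with a mean of 16.8% ± 15.9 (SD, n = 8) in 2012, 26.1% ± 14.8 (n = 8) in 2013 and 34.2% ± 11.6 (n = 8) in 2014. It was highest in male 2012 replicate 1 (54.2%) and female 2014 replicate 1 (54.3%). TPM of a library sums to a fixed total, so the other features are listed lower where this share is higher. Each library was therefore divided by its median-ratio size factor before the comparisons, and levels below are scaled TPM unless stated otherwise. Read totals cannot be had from TPM, and the depth behind each value is unknown. Blood cell markers could not be matched to IDs without symbols and were not analysed here. In bulk blood, fewer cells of a type and less RNA per cell cannot be told apart.

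The zinc finger genes were expressed at low to moderate levels, and most of them varied little between whales. The mean level over 24 libraries ran from 2.11 to 52.1 scaled TPM, with a median of 11.8 over the members, against 16.7 over all IDs. ID 7770 was the highest (38.9, 51.5 and 72.0 as lowest, median and highest library), followed by ID 7596 (38.0, 42.5 and 51.2). Both were above 30 in every library. ZKSCAN1 stood with ID 7570 at a mean of 20.3, and ID 7564 was the lowest (1.28, 2.14 and 3.47). All members together held between 0.0285% and 0.0880% of the listed TPM.

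The coefficient of variation between libraries had a median of 15.2% over the members, with a range of 7.97% to 40.8%. Over all IDs its median was 17.7%, and over the 7829 IDs within the members' range of mean levels it was 17.6%. Only 2 of the 35 members exceeded 30%, ID 7565 at 40.8% and ID 7584 at 33.2%, where 16.8% of all IDs did so. On the TPM as deposited the median was 30.3% over the members and 29.7% over all IDs.

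**Figure D1:**
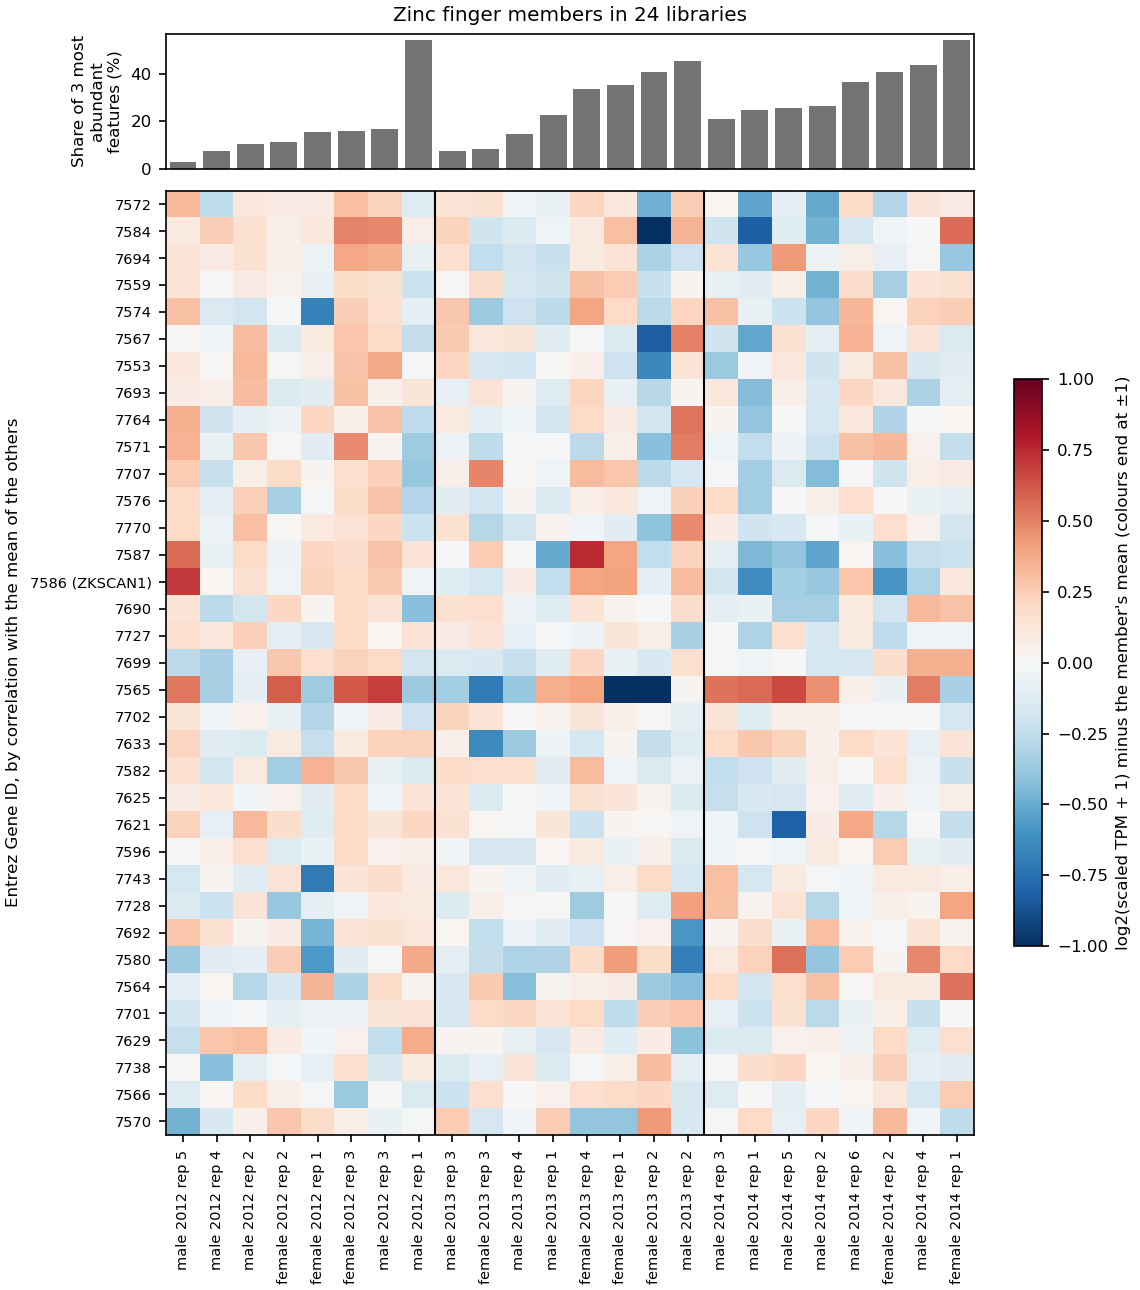
Scaled level of the 35 listed zinc finger members (rows, by Entrez Gene ID) in the 24 libraries (columns, by year), as log2(scaled TPM + 1) minus the member's mean. Most cells lie near 0, and the widest swings are in IDs 7565 and 7584.

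ZKSCAN1 was the member the set was built around, and it was lower in 2014. Its level (lowest, median, highest of 8 libraries) was 19.1, 22.5 and 32.9 in 2012. In 2013 it was 16.5, 19.6 and 26.4, and in 2014 it was 12.5, 15.6 and 24.2. The years overlapped: the highest library of 2014 was above the lowest of the earlier years. The mean was 23.0 ± 4.44 (SD, n = 8) in 2012, 21.1 ± 4.14 (n = 8) in 2013 and 16.8 ± 4.08 (n = 8) in 2014. The difference of 2014 from 2012, which chose the gene, was -0.44 ± 0.13 (SE) on the log2(scaled TPM + 1) scale. It was -0.31 with size factors from all features and -0.15 with the sampling date as a covariate.

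ZKSCAN1 rested on 2 assembled features, and they did not carry the difference equally. TR18980|c1_g9 was the lower of them, at 6.36, 8.96 and 14.9 (lowest, median, highest library) in 2012. It was at 4.96, 6.51 and 9.57 in 2013, and at 2.25, 3.82 and 9.51 in 2014. In 7 of the 8 libraries of 2014 it was below every library of 2012, with male 2014 replicate 6 as the exception. TR25914|c10_g1, the other feature, was at 11.7, 13.5 and 18.0 in 2012, at 11.6, 13.5 and 17.0 in 2013, and at 10.3, 11.8 and 15.8 in 2014. Its libraries of all 3 years lay over nearly the same range.

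The division of ZKSCAN1 between its features does not depend on how a library is scaled. TR18980|c1_g9 made up 40.2% ± 3.57 (SD, n = 8) of the ZKSCAN1 TPM in 2012, 33.0% ± 3.19 (n = 8) in 2013 and 25.0% ± 6.52 (n = 8) in 2014. The libraries ran from 33.2% to 45.3% in 2012, from 27.7% to 36.4% in 2013 and from 18.0% to 39.4% in 2014. The highest of 2014 was again male 2014 replicate 6, and the next was female 2014 replicate 1 at 26.4%. With male 2014 replicate 6 the years 2013 and 2014 overlapped, and without it all libraries of 2014 were below all libraries of 2013. That library was set aside after its value was seen, so the separation is a description only. Across the 24 libraries the features moved together, with Pearson's r of 0.78 and Spearman's rho of 0.77, a description over libraries that share their scaling. Both features lie in assembly clusters that also hold features of other IDs (8 IDs in TR25914 and 9 in TR18980, ID 7586 included), so how reads were divided among them is uncertain.

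**Figure D2:**
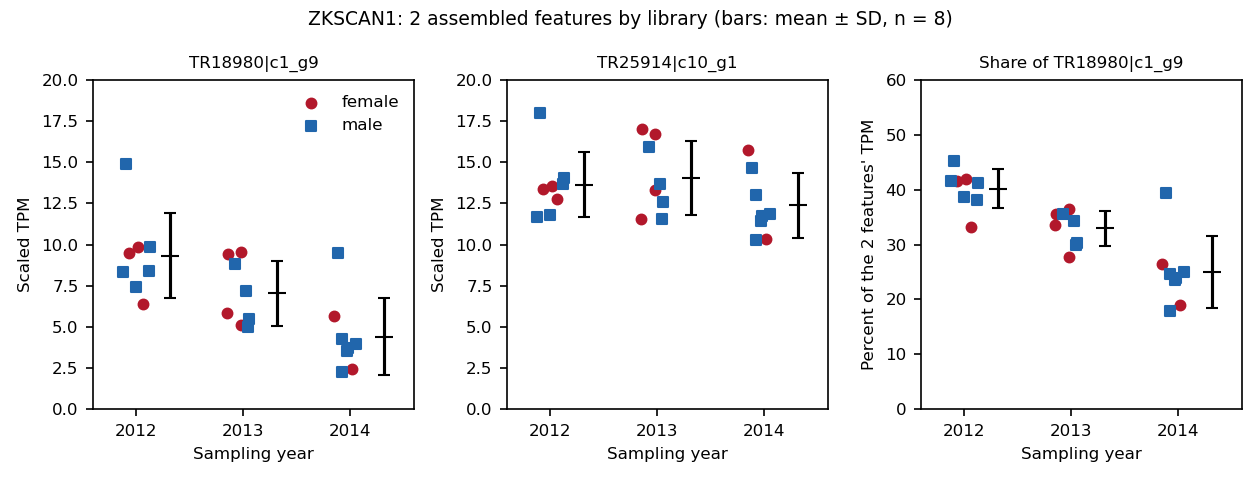
ZKSCAN1 by sampling year, with each point a library (circles female, squares male) and bars the mean ± SD of 8 libraries. The panels plot its features in scaled TPM and the share of TR18980|c1_g9 in their sum in percent, whose mean is 40.2%, 33.0% and 25.0% in the successive years while TR25914|c10_g1 stays between 10.3 and 18.0.

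Between 2012 and 2013 no zinc finger member was called. The comparison used limma over 9854 IDs with sex in the model, and a call needed a Benjamini-Hochberg adjusted p under 0.05. It called 0 of 35 members, and 0% of all IDs. At an unadjusted p under 0.05 there were 3 of 35 members, IDs 7553, 7565 and 7633, and 228 of all IDs (2.31%). The median difference, 2013 minus 2012, was -0.06 over the members and 0.00 over all IDs, and 24 members were below 0. For ZKSCAN1 it was -0.12 ± 0.13 (SE) with an adjusted p of 1.0 by limma. The range over the members was -0.57 (ID 7565) to 0.13 (ID 7701). Adding the sampling date as a covariate turned the direction, to a median of 0.12 over the members and 0.23 for ZKSCAN1, and no member was called. The sampling dates of 2012 and 2013 do not overlap, so in this contrast year and date cannot be told apart.

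Between 2013 and 2014 none was called either. Limma called 0 of 35 members, where 0.0203% of all IDs were called (2 IDs, both lower in 2014). The count over all IDs was 0 to 6 with most single libraries left out, 82 without male 2013 replicate 1, 101 without male 2014 replicate 6 and 206 without female 2013 replicate 2, with 0 members called in each case. At an unadjusted p under 0.05 there were 6 of 35 members and 1783 of all IDs (18.1%), so the members were near the share of all IDs. ID 7633 was nearest to a call: its level (lowest, median, highest) was 10.8, 15.5 and 18.0 in 2013 and 16.3, 19.5 and 21.1 in 2014. Its groups overlapped, and its difference, 2014 minus 2013, was 0.31 ± 0.09 (SE) with an adjusted p of 0.112 by limma. IDs 7564 and 7565 were also higher at that unadjusted level, at 0.31 ± 0.13 and 0.66 ± 0.26. ZKSCAN1 (-0.32 ± 0.14, adjusted p of 0.225 by limma), ID 7587 (-0.37 ± 0.14) and ID 7701 (-0.18 ± 0.09) were lower. IDs 7553, 7564, 7587 and 7571 (below) were singled out after their values were seen.

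The median difference, 2014 minus 2013, was -0.02 over the members and 0.01 over all IDs, with 16 members above 0 and 19 below. Size factors from all features moved these medians to 0.13 and 0.16, and the difference of ZKSCAN1 to -0.15. These contrasts share the 2012, 2013 or 2014 libraries with each other and with the contrast that chose ZKSCAN1. The low level of ID 7565 in 2013 therefore enters both, as its values of -0.57 and 0.66 show. Fitted on its own among all features, with size factors from the features, TR18980|c1_g9 differed by -0.39 ± 0.19 (SE) between 2012 and 2013 and by -0.50 ± 0.19 between 2013 and 2014. Limma's adjusted p for these was 1.0 and 0.158. TR25914|c10_g1 differed by 0.00 ± 0.11 and 0.00 ± 0.12. With the size factors of the summed IDs, which leave the median of all features at -0.13 for 2014 minus 2013, TR18980|c1_g9 differed by -0.36 ± 0.20 and -0.64 ± 0.20 (adjusted p of 1.0 and 0.103 by limma) and TR25914|c10_g1 by 0.03 ± 0.11 and -0.16 ± 0.11.

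For 2014 against 2012 the values are a description. Limma's threshold was passed by 0 of 35 members and by 3.62% of all IDs (357). The count over all IDs was 17 without female 2014 replicate 1 and 796 without male 2012 replicate 1. The median difference was -0.06 over the members and 0.00 over all IDs, and 22 members were below 0. The members ran from -0.45 (ID 7587) to 0.28 (ID 7580), with ZKSCAN1 next to ID 7587 at the low end. ID 7587 had a level (lowest, median, highest) of 4.64, 5.74 and 7.73 in 2012 and of 3.11, 3.80 and 5.01 in 2014. Of the libraries of 2014, male 2014 replicate 6 alone was above the lowest of 2012, as for TR18980|c1_g9. On the TPM as deposited, which carries the difference in globin share, the threshold was passed by 4 members, IDs 7572, 7584, 7586 and 7587, all lower in 2014, and 11% of all IDs passed it in that direction. The median was then -0.44 over the members and -0.38 over all IDs.

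**Figure D3:**
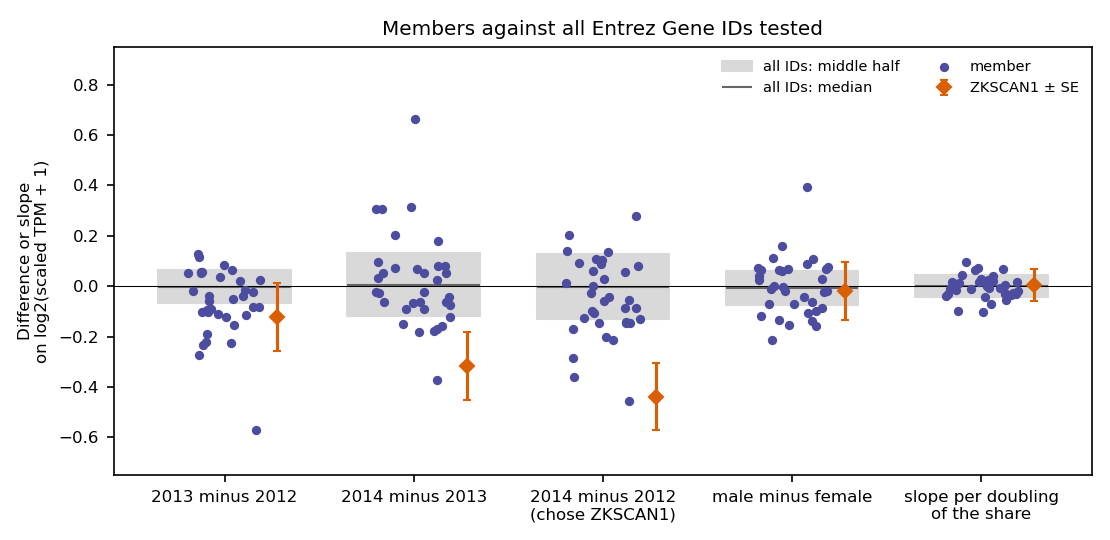
Difference of each member on the log2(scaled TPM + 1) scale for the year and sex contrasts and the slope per doubling of the globin share. Bars give ± SE for ZKSCAN1 only, and the middle of all IDs is drawn for comparison. Members scatter on both sides of 0, with ZKSCAN1 and ID 7587 lowest in 2014 minus 2012 and ID 7565 at -0.57 and 0.66 in the other year contrasts.

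Males and females had like levels of the zinc finger genes in sum. The members summed to 557 ± 34.7 scaled TPM (SD, n = 9) in females and 555 ± 36.1 (n = 15) in males. Limma with year in the model called 0 of 35 members, where 0.162% of all IDs were called. At an unadjusted p under 0.05 there were 1 of 35 members, ID 7699, and 401 of all IDs (4.07%). The level of ID 7699 (lowest, median, highest) was 11.4, 14.6 and 16.7 in females and 10.0, 11.7 and 16.7 in males. The sexes overlapped, and its difference, male minus female, was -0.21 ± 0.08 (SE) with an adjusted p of 0.987 by limma. For ZKSCAN1 the difference was -0.02 ± 0.12 (adjusted p of 0.993 by limma), with levels of 12.8, 21.4 and 26.4 in females and 12.5, 19.3 and 32.9 in males.

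Whether the zinc finger genes followed the globin share depended on the scale. As deposited, the members summed to between 285 and 873 TPM, a 3.07-fold range, and the sum was lowest in the libraries with the highest share. All 35 members were called lower with a higher share (limma, year and sex in the model), as were 92.5% of all IDs. The median slope per doubling of the share was -0.31 on the log2(TPM + 1) scale over the members and -0.31 over all IDs. The members' fall was thus of the size found across the whole table.

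After median-ratio scaling the members summed to between 496 and 621, a 1.25-fold range. By year the sum was 572 ± 39.0 (SD, n = 8), 550 ± 34.4 (n = 8) and 545 ± 28.3 (n = 8). Limma called 0 of 35 members on the share, where 0.852% of all IDs were called, nearly all of them higher with a higher share (84 IDs, and 39 without male 2012 replicate 1). At an unadjusted p under 0.05 there were 2 of 35 members, IDs 7702 and 7707, and 894 of all IDs (9.07%). Their slopes per doubling were -0.07 ± 0.03 (SE) and -0.10 ± 0.05, with adjusted p of 0.414 and 0.517 by limma. The other end was ID 7580 at 0.10 ± 0.07. The median slope was -0.01 over the members and 0.00 over all IDs, with 17 members above 0 and 18 below. Median-ratio scaling itself sets the middle of all IDs near 0, here and in the year and sex contrasts. It also removes a fall that most IDs share, so the flat medians and the narrow range of sums follow in part from the scaling. ZKSCAN1 had a slope of 0.01 ± 0.06 with an adjusted p of 0.986 by limma, against -0.32 ± 0.07 as deposited. Within single years its slope was -0.13 ± 0.06 in 2012, 0.15 ± 0.08 in 2013 and 0.44 ± 0.29 in 2014 (8 libraries each), with limma adjusted p of 0.335, 0.929 and 0.764.

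**Figure D4:**
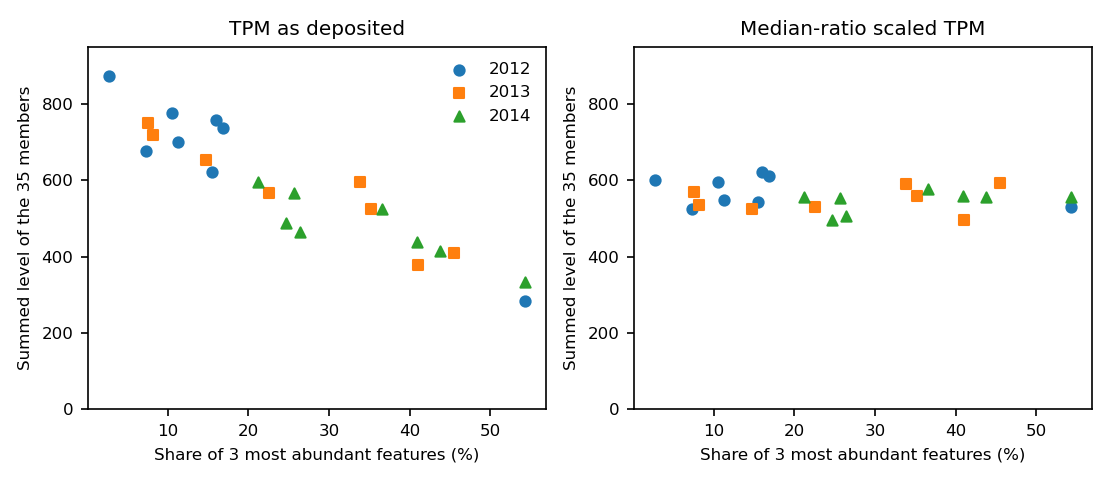
Summed level of the 35 members against the globin share in percent, as deposited (left, TPM) and after median-ratio scaling (right), with 1 point per library and the years by colour and shape. The deposited sum ranges from 285 to 873 and is lower at high share, whereas the scaled sum stays between 496 and 621.

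Whether the family varied together was described by correlation over the 24 libraries, which share their scaling within a library. Over the 595 pairs of members the median Pearson's r was 0.10 (Spearman's rho 0.11), and 60.7% of pairs were above 0. Over all pairs of IDs the median was 0.00 and 49.6% were above 0. With size factors from all features the median r was 0.23 over the members and 0.18 over all pairs of IDs, so the level of r and its distance from the background both depended on the scaling. The first principal component held 26.5% of the members' variance and 23.7% of that of all IDs. With size factors from all features these shares were 28.2% and 31.3%, the other way round. The sets also differ in size (35 and 9854 IDs), so the shares are not directly comparable. With year, sex and globin share removed by a linear fit, the median r was 0.12 over the members and 0.00 over all IDs. As deposited, the median r was 0.77 over the members and 0.68 over all IDs.

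The members did not form 1 block. With the mean of the other members, 15 of the 35 had an r over 0.5 and 8 had an r below 0. No like count for other sets of IDs is given here, so whether these counts are particular to the members is unknown. ID 7572 followed that mean most closely, at 0.82, then ID 7584 at 0.70 and ID 7694 at 0.66. Leaving out any 1 library kept these between 0.61 and 0.85. At the other end were ID 7570 at -0.54, ID 7566 at -0.33 and ID 7738 at -0.27. The pair of IDs 7559 and 7570 had the lowest r of all, -0.69, and stayed between -0.72 and -0.65 with any 1 library left out.

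The member whose levels were most like those of ZKSCAN1 was ID 7587. Their r was 0.85 and their rho 0.85 over the 24 libraries, the highest of the 595 pairs. It stayed between 0.83 and 0.89 with any 1 library left out, and it was 0.78 with year, sex and globin share removed. Both were lowest in 2014, and neither shares an assembly cluster with the other.

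Single libraries held several of the extremes. Female 2013 replicate 2 was the lowest library for 6 members (17.1%), where it was the lowest for 4.13% of all IDs. Male 2014 replicate 1 was also lowest for 6 (17.1%, against 5.60% of all IDs). Male 2013 replicate 2 was highest for 6 (17.1%, against 9.56%). Other libraries went the other way. Female 2014 replicate 1 was lowest for 0 members, against 11.6% of all IDs. Male 2012 replicate 1 was lowest for 1 (2.86%, against 10.0%) and highest for 1 (2.86%, against 10.5%). The median r over pairs stayed between 0.08 and 0.11 with any 1 library left out.

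A few member features were near absent in some whales and plainly present in others. TR10980|c0_g1, the leading feature of ID 7565, was between 0.117 and 0.145 scaled TPM in female 2013 replicates 1, 2 and 3, and at 2.67 or more in the other 21 libraries. The other feature of that ID, TR30172|c0_g1, was between 0.905 and 4.1 in all 24 libraries. For the summed ID 7565, 3 of the 4 males of 2013 were at 5.10, 5.22 and 7.09, and the other at 9.20. The 3 were below all males of 2014 (7.21 or more). The males of 2012 were at 5.17, 5.28, 6.39, 10.4 and 11.8, a range that overlapped the males of 2013.

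ID 7571 also had a feature near absent, in 1 library, but its other feature behaved differently from that of ID 7565. In female 2013 replicates 1, 2 and 3, TR30172|c0_g1 of ID 7565 was at 2.37, 1.03 and 3.75, below its highest level. TR10074|c0_g1 was listed at 0 in female 2013 replicate 2 and was at 2.94 or more elsewhere, while TR10074|c0_g2 had its highest level, 4.7, in that library. The features of ID 7571 had an r of -0.58, the lowest of the 50 pairs of features that share a member ID. Over these 50 pairs the median r was 0.21 and 36% were below 0, against 0.27 and 23.8% over 7674 such pairs of all IDs. Among member features with a median of 2 TPM or more, 3 of 63 were under 0.5 TPM in some library, where 5.33% of all such features were. Reads that fit several assembled copies of a like sequence may be divided differently between libraries, which was not tested.

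**Figure D5:**
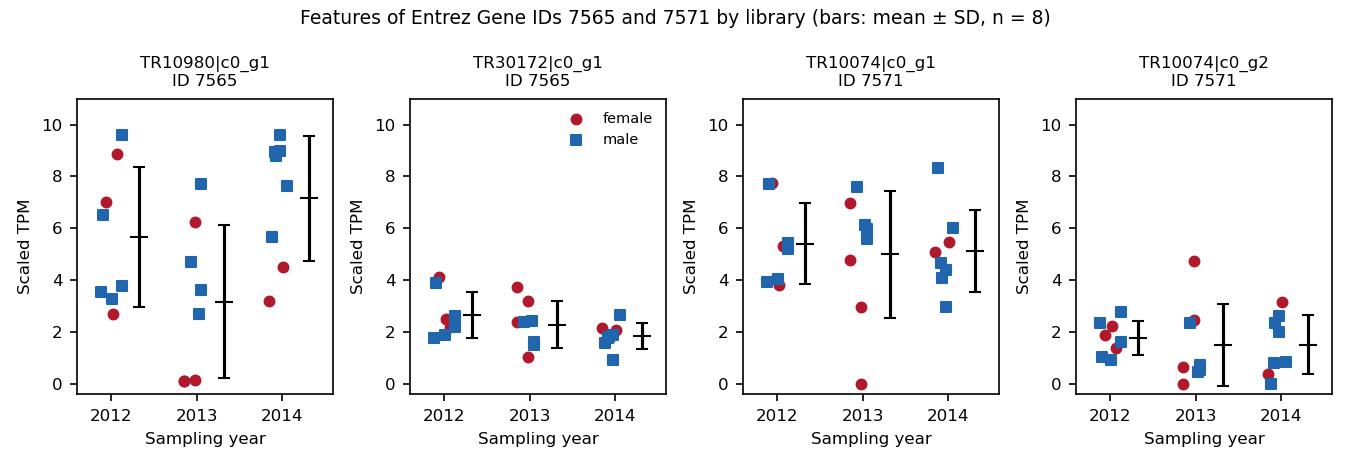
Scaled TPM by year of the features of IDs 7565 and 7571, with each point a library (circles female, squares male) and bars the mean ± SD of 8 libraries. TR10980|c0_g1 has 3 females of 2013 near 0, and TR10074|c0_g1 has 1.

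Of the 35 members, 11 rested on 1 feature and 24 on 2 or more, with at most 5 (ID 7728). The features lay in 58 assembly clusters, which group sequences that share reads. TR25914 holds features of 3 members (IDs 7553, 7586 and 7743), TR14322 of IDs 7559 and 7625, and TR38099 of IDs 7692 and 7694. In all, 12 members share a cluster with another ID, and their levels are uncertain to the extent that reads of like zinc finger repeats were divided between features.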

How the data were processed

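Whole blood RNA was made into strand-directional libraries with a NEBNext Ultra kit, per the labels' protocols. The deposited values are TPM per assembled feature (transcript abundance corrected for length, each library scaled to a fixed total by the authors). Trimmomatic, Bowtie2 and RSEM 1.2.21 are named by the submitters' processing notes, and Trinity by the series' design text. The sources used here do not give the annotation behind the Entrez Gene IDs.

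TPM were summed per Entrez Gene ID (1 entry that is no ID was left out) and divided by median-ratio size factors over the 9783 IDs above 0 in every library. The first factors were taken from all features and were replaced after their result was seen, because they left the median of all IDs at 0.12 for 2014 minus 2012 (log2). The 9854 IDs that reached 1 TPM in 8 or more libraries were kept. limma 3.58.1 in R 4.3.3 (trend, robust) was fitted to log2(scaled TPM + 1), which understates the change of low genes, with year and sex in the model. The p-values were Benjamini-Hochberg adjusted over all IDs and called under 0.05. Correlations were computed with numpy 2.4.6 in Python 3.11.15. Feature fits used size factors from the features.

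In data simulated for 2014 against 2013 (9851 IDs), 96% of IDs changed by 1 on the log2 scale and 100% of those changed by 2 were recovered, and 8.41% of calls were false. Changes were planted only in IDs with a mean log2(scaled TPM + 1) above 2, with independent normal noise for each ID. The members' differences in this contrast ran from -0.37 to 0.66. Changes of that size were not simulated, so recovery at the sizes seen is unknown.

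The members and lists were chosen with earlier results of these data known. Named members were ZKSCAN1, the 10 highest in level, the 8 lowest and 8 highest slopes on the globin share, any called in a fit, and the 3 highest and 3 lowest in correlation with the other members. Lists written as symbols (globin chains, KAP1 corepressor, SCAN genes, blood cell markers) were not analysed here, since the files pair no symbol with an ID. The globin share was therefore that of the 3 most abundant features. No counting interval is given because the depth is unknown. No sequence is printed, since none was available to the analysis.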

Additional observations from a re-analysis of the deposited data

Results flagged for a closer look

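In 12 of 112 sets of 4 to 10 libraries (28 quantities by year and for females), 1 library stood apart by Dixon's test. The test was on the log2 scale for levels and in percent for the globin share. Chance gives about 1 in 20 for independent sets. These sets share libraries, and summed IDs stand beside their own features, so the count cannot show an excess over that rate. Levels are scaled TPM.

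Female 2013 replicate 2 accounted for 4 of these. Its level of ID 7572 was 19.7, and the others of 2013 had 26.6 to 33.3. ID 7584 was at 0.605 in it, against 1.85 to 3.15 in the others of 2013 and 1.85 to 3.83 in the other females. ID 7567 was at 3.80, against 6.71 to 9.33 in the other females.

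ZKSCAN1 stood apart in male 2012 replicate 5, with 32.9 where the others of 2012 had 19.1 to 23.9. Its feature TR25914|c10_g1 was at 18.0 there, against 11.7 to 14.0. This library also had the lowest globin share, 2.72%, and its part in the level was not tested. The other feature, TR18980|c1_g9, was at 2.43 in female 2014 replicate 2, against 5.10 to 9.83 in the other females. The set of females pools the years. Over all libraries of 2014 this feature ran from 2.25 to 9.51 with a median of 3.82, so 2.43 lay within the range of its year.

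The remaining values were single. ID 7566 was at 5.40 in female 2012 replicate 3, against 7.16 to 8.85 in the other females. ID 7633 was at 10.8 in female 2013 replicate 3, against 14.5 to 19.1. ID 7692 was at 6.66 in female 2012 replicate 1, against 9.75 to 11.8 in the others of 2012, and at 6.06 in male 2013 replicate 2, against 7.92 to 9.89 in the others of 2013. The globin share was 54.2% in male 2012 replicate 1, against 2.72% to 16.8% in the others of 2012. This flag was taken in percent. On the log2 scale of the fits the share was 5.76, against 1.44 to 4.07.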

How the results depend on the processing

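The count of members called (0 of 35) held under every alternative run for 2013 minus 2012 and for sex. TPM as deposited gave 4 members for 2014 minus 2012 and 35 for the globin slope. For 2014 minus 2012, which chose ZKSCAN1 and whose counts are a description, the count was 1 with features not summed, with no sex term and without both libraries over 50% share. For 2014 minus 2013, 1 was called with library weights (ID 7633). With any 1 library left out, 0 to 0 members were called in each contrast but 2014 minus 2012, where 0 to 2 were. There the count moved from 0 with 4 single libraries left out and held with 20, and it was 2 without male 2014 replicate 6.

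Calls over all IDs moved more. For 2014 minus 2013 (2) they were 0 as deposited, with feature size factors, without trend and robust, with features not summed, in males only, with the share as a covariate and without both high-share libraries. They were 446 with weights, 582 with day of year and 7 with no sex term, and 0 to 206 with 1 library left out (most without female 2013 replicate 2). For 2014 minus 2012 (357) they were 1112 as deposited, 567 with feature size factors, 744 with weights, 0 with day of year or the share, 100 with features not summed and 1 in males only. Leaving out 1 library gave 17 (female 2014 replicate 1) to 796 (male 2012 replicate 1). For sex they were 10 as deposited and 10 with sampling date as a block, and 14 to 16 with 1 library out. For the slope (84) they were 9166 as deposited, 49 with weights, 48 with day of year, 187 on the share alone, 27 in 2013 only, 0 in 2014 only, 44 without both high-share libraries and 39 to 116 with 1 library out. For 2013 minus 2012 they were 0 to 0.

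The members' median for 2013 minus 2012 was -0.19 as deposited, 0.12 with day of year and -0.08 to -0.04 with 1 library out. For 2014 minus 2013 it was -0.26 as deposited, 0.13 with feature size factors, 0.12 with features not summed and -0.04 to 0.02. For 2014 minus 2012 it was -0.44, 0.064 and 0.033 in the same order, 0.082 with day of year and -0.09 to -0.04. For sex it was 0.087 as deposited and -0.02 to 0.01, and for the slope -0.31 and -0.01 to 0.01. Feature size factors moved the median of all IDs to 0.16 for 2014 minus 2013 and 0.12 for 2014 minus 2012. The median r was 0.77 as deposited, 0.23 with feature size factors and 0.08 to 0.11.

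ZKSCAN1 changed sign for 2013 minus 2012 with day of year (0.23), for sex as deposited (0.079) and without both high-share libraries (0.066), and for the slope as deposited (-0.32), in males only (-0.051), on the share alone (-0.083) and in 2012 only (-0.13). For 2014 minus 2013 it was -0.15 with feature size factors, and for 2014 minus 2012 -0.31 with these and -0.15 with day of year. Its slope was 0.15 in 2013 only and 0.44 in 2014 only. With 1 library out it ran from -0.17 to -0.05, -0.39 to -0.24 and -0.51 to -0.36 for 2013 minus 2012, 2014 minus 2013 and 2014 minus 2012, from -0.084 to 0.043 for sex and from -0.026 to 0.10 for the slope. The cause of these changes was not tested. Feature size factors, the date block, single years, the high-share libraries left out and the range of means were chosen after the data had been seen. No paired analysis was possible because replicate numbers, given in accession order, pair no libraries. Sampling dates, 7 of 15 with both sexes, were used instead as a block for sex: 0 members were called, and ZKSCAN1 differed by -0.023. At an unadjusted p under 0.05 there were 2 members and 410 of all IDs.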

Other observations

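In several other members the TPM was also divided differently by year among the features of an ID, and the members were ordered by this after their values were seen. ID 7699 had the widest shift between 2012 and 2014. The feature TR17669|c0_g1 held 72.2% ± 8.83 (SD, n = 8) of its TPM in 2012, 64.4% ± 9.42 (n = 8) in 2013 and 56.0% ± 11.2 (n = 8) in 2014. Among members with more than 1 feature, ID 7699 and ZKSCAN1 had the widest shifts in the share of the leading feature between 2012 and 2014, -16.2 and 15.2 percentage points. ZKSCAN1 was chosen on its lower level in 2014 than in 2012 in these libraries, so its place in this order is a description only. ID 7565 came next at 11.7, with a leading share of 66.0% ± 10.1, 44.8% ± 32.8 and 77.7% ± 9.93 in the successive years, and then ID 7566 at 10.6. The summed level of ID 7699 was 13.0 ± 2.28, 12.3 ± 1.51 and 13.5 ± 2.20 scaled TPM in those years, within the spread between libraries.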
